A study of Homo sapiens with 12 samples.

Results

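Skipped exons are cassette exons that a transcript either keeps or leaves out between the exons on both sides. All listed skipped exon events of HCT116, a human line established from a colon cancer, were taken from the authors' deposited tables, 276 events for the MTAP-null form and 61 for the MTAP-WT form. These 337 events are among 2365 splicing events and introns listed in all. Both engineered forms of the line received AGI24512, an inhibitor of MAT2A, or the solvent DMSO, with 3 poly-A RNA libraries in each of the 4 groups. The labels give the 4 groups as MTAP-null with DMSO, MTAP-null with AGI24512, MTAP-WT with DMSO and MTAP-WT with AGI24512, and name no dose, duration or clone. They do not say that libraries came from separate cultures, so test values reflect how far these libraries vary, in part perhaps for technical reasons. The design asks how the compound acts on cells without MTAP.

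MAT2A makes S-adenosylmethionine, the methyl donor of the cell, and MTAP recycles methylthioadenosine, which otherwise builds up and inhibits the arginine methyltransferase PRMT5. PRMT5 methylates Sm proteins of the spliceosome and many RNA-binding proteins. Whether a cassette exon is kept depends on its splice sites and on SR proteins and hnRNPs that bind the exon and its flanks. An exon whose length is divisible by 3 can be left out without a shift of the reading frame, and very short exons, called microexons, are known mostly from neurons.

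The inclusion level is the share of transcripts that keep the exon, from 0 to 1, after inclusion and skipping reads were divided by the length over which each can fall. Each table compares sample set 1 with sample set 2 of 3 libraries each. No header names the treatment of either set, so directions are given as higher in set 1 or in set 2. No level below is assigned to AGI24512 or DMSO. The genotypes have separate tables, so set 1 need not hold the same treatment in both. The tables hold no expression level per gene, so neither the loss of MTAP nor markers of the line were checked.

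The exons that carry the results below are shown first, as spliced RNA in DNA letters, 5′ to 3′, with the cassette exon in capitals and 12 bases of each neighbouring exon in lower case. They were read from GENCODE 29 transcripts on GRCh38. The neighbouring exons are those of the transcript read and can differ from the flanking exons of the event, as for UBE2F. The first 4 are microexons, the next 3 were listed in both genotypes, and the last 5 had large differences or a listed intron beside them.

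PRKACB 9 bp exon, chr1:84175799-84175807, + strand: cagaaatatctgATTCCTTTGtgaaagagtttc
DCTN1 18 bp exon, chr2:74374323-74374340, - strand: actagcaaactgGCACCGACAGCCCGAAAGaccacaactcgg
CACNB4 20 bp exon, chr2:151870842-151870861, - strand: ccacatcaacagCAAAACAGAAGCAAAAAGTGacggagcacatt
UBE2F 30 bp exon, chr2:237987963-237987992, + strand: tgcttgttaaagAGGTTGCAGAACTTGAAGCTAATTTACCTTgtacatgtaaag
STRADA 58 bp exon, chr17:63726638-63726695, - strand: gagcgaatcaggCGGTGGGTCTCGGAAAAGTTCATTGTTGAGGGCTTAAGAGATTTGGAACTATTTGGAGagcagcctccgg
ZFAS1 62 bp exon, chr20:49280903-49280964, + strand: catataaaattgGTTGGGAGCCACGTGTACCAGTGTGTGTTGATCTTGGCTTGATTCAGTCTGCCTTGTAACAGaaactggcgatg
CD44 129 bp exon, chr11:35196746-35196874, + strand: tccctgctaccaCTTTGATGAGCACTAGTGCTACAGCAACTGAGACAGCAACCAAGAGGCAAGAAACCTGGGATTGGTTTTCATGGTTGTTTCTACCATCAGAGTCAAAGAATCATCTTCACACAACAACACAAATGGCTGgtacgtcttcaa
MDM4 39 bp exon, chr1:204537459-204537497, + strand: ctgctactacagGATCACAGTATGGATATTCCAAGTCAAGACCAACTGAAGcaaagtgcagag
C11orf30 42 bp exon, chr11:76539599-76539640, + strand: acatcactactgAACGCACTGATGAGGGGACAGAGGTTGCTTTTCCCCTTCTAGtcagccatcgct
PTPN4 45 bp exon, chr2:119881786-119881830, + strand: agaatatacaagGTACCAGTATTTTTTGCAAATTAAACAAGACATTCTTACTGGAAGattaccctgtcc
CCDC138 58 bp exon, chr2:108788032-108788089, + strand: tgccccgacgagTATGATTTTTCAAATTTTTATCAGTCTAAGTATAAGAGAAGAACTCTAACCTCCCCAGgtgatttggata
GPBP1 60 bp exon, chr5:57237113-57237172, + strand: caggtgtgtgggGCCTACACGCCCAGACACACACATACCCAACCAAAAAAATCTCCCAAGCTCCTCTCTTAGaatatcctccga

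In MTAP-null cells the 276 events fell on 259 different exons of 224 genes, and in MTAP-WT cells the 61 events fell on 54 different exons of 40 genes. The relation of p-value, rank and FDR in the authors' deposited table gives 59379 skipped exon events tested in MTAP-null, of which 0.465% passed an FDR of 0.05. In MTAP-WT it gives 60354 events, of which 0.101% passed. Exons moved both ways. In MTAP-null, 134 events were higher in set 1, 0.226% of those tested, and 142 were higher in set 2, 0.239%. In MTAP-WT, 36 were higher in set 1, 0.0596%, and 25 in set 2, 0.0414%. CD44 alone gave 17 of the MTAP-null and 16 of the MTAP-WT events, all higher in set 1. Without it 45.2% of the MTAP-null and 44.4% of the MTAP-WT events were higher in set 1, against 48.6% and 59.0% with it. The difference between the genotypes in these counts was not tested.

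The median size of the inclusion level difference was 0.236 in MTAP-null and 0.242 in MTAP-WT, with smallest values of 0.073 and 0.099. Levels of the 3 libraries of set 1 did not overlap those of set 2 in 251 MTAP-null events (90.9%) and 58 MTAP-WT events (95.1%). The events were listed for passing the FDR on these same libraries, so these counts are a description. The share over all events tested is unknown, since only those that passed were analysed here. An exact permutation test of 3 against 3 libraries cannot go below p = 0.1, so no test of single exons was added to the authors'.

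**Figure D1:**
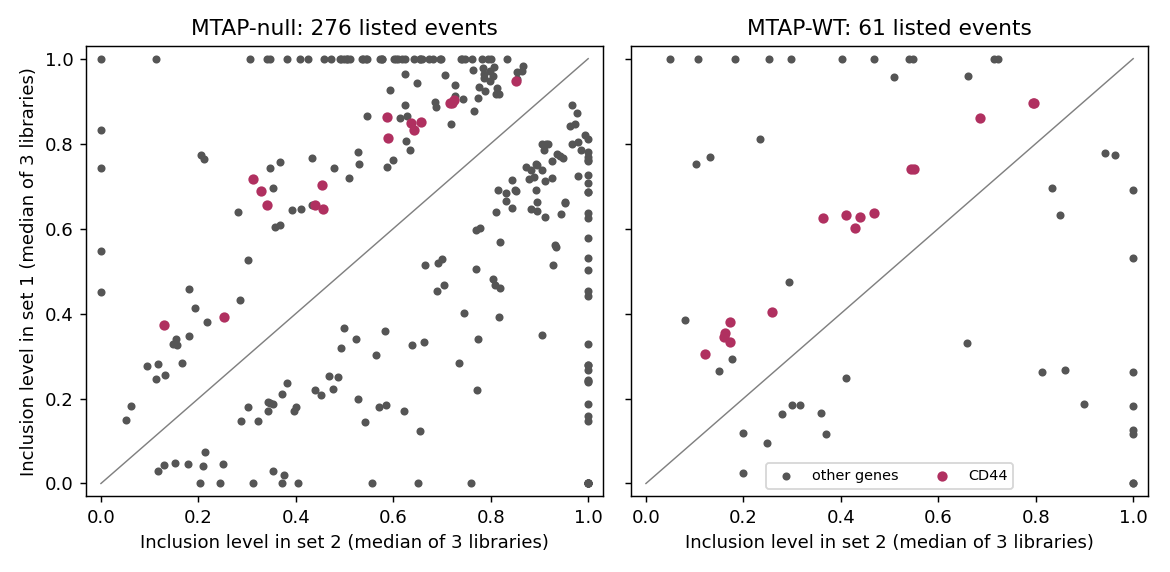
Inclusion level (0 to 1) in set 1 against set 2, each the median of 3 libraries, for every listed skipped exon event, with CD44 events in a second colour and a line of equal levels. The 276 MTAP-null events lie on both sides of the line, and all CD44 events lie above it in both genotypes.

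Most listed exons were kept in an intermediate share of transcripts. The median over events of the 6-library median level was 0.706 in MTAP-null and 0.522 in MTAP-WT. In MTAP-null, 21 events had a median level of up to 0.2, 165 lay between 0.2 and 0.8, and 90 were at 0.8 or more. In MTAP-WT these counts were 4, 47 and 10. The lowest median level in MTAP-null, 0.0725, belonged to an exon of MAGOHB, a core protein of the exon junction complex. Of the 21 low MTAP-null exons, 7 were higher in set 1, as were 81 of the 165 intermediate and 46 of the 90 high ones. The median size of the difference was 0.168, 0.293 and 0.194 in these 3 classes. The classes were cut on the same 6 levels, and a median near an end of the scale limits the difference. These sizes are therefore a description.

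Depth differed widely between events. Reads in the shallowest library ran from 1 to 24196 over the MTAP-null events, with a median of 79, and from 1 to 36452 over the MTAP-WT events, with a median of 75. For 1 MTAP-null event the reads could not be recovered. Fewer than 20 reads in a library were found for 90 MTAP-null events and 26 MTAP-WT events. Those had a median difference of 0.437 and 0.591. In the 30 MTAP-null and 12 MTAP-WT events with 1000 or more reads in every library it was 0.135 and 0.126. The largest differences in the tables therefore belong to the exons with the fewest reads, and intervals given below cover counting error only.

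**Figure D2:**
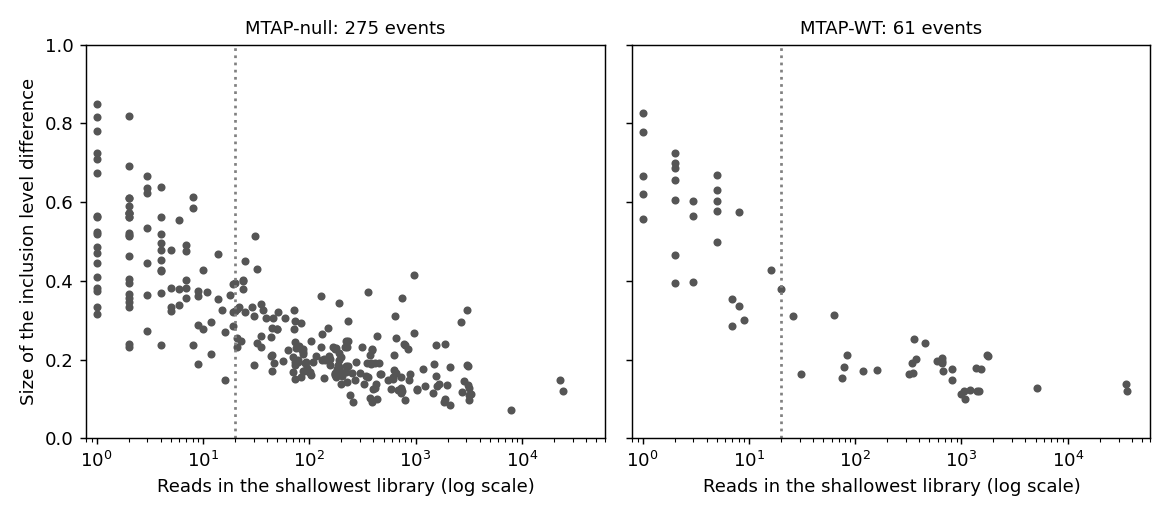
Size of the inclusion level difference (0 to 1) against the reads in the shallowest of the 6 libraries (log scale), 1 point per event, with a dotted line at 20 reads. Differences above 0.6 are seen only left of the line, and the events with 1000 or more reads have median differences of 0.135 in MTAP-null and 0.126 in MTAP-WT.

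The 259 MTAP-null exons had a median length of 105 bp and the 54 MTAP-WT exons 117 bp, against 123 bp over 212340 annotated internal exons of coding genes, whose quartiles are 88 and 170 bp. Within coding sequence the medians were 93 bp over 153 MTAP-null exons and 115 bp over 35 MTAP-WT exons, against 121 bp over annotated internal coding exons. The difference in length was not tested. The longest were an exon of 1422 bp in SPOCD1 in MTAP-null and one of 1528 bp in LRIF1 in MTAP-WT. Exons over 300 bp numbered 15 in MTAP-null and 4 in MTAP-WT. The LRIF1 exon had inclusion levels of 0.112, 0.165 and 0.165 in set 1 and of 0.307, 0.359 and 0.367 in set 2. All 3 set 1 libraries lay below set 2, with at least 590 reads in each library. LRIF1 encodes a nuclear protein that binds heterochromatin protein HP1.

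**Figure D3:**
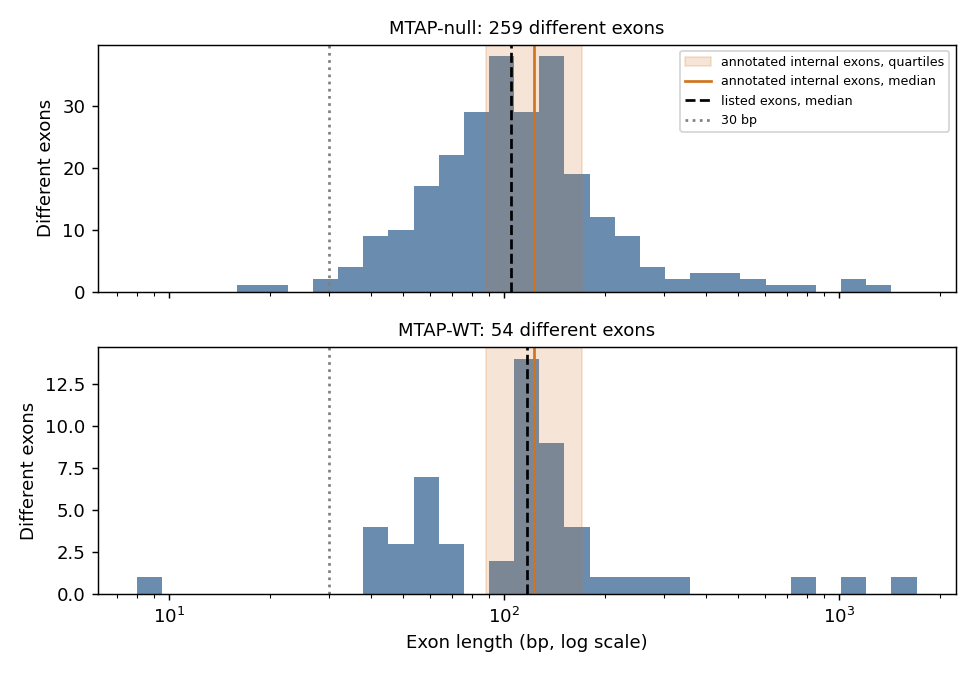
Number of different exons by length (bp, log scale) in each genotype, with the median of the listed exons, the median and quartiles of annotated internal exons, and a dotted line at 30 bp. The listed medians, 105 bp in MTAP-null and 117 bp in MTAP-WT, lie below the annotated median of 123 bp.

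Within coding sequence, 73 of 153 MTAP-null exons (47.7%) and 21 of 35 MTAP-WT exons (60.0%) had a length divisible by 3, against 41.2% of 169202 annotated internal coding exons. Without CD44 the counts were 67 of 147 and 14 of 28. In MTAP-null it held for 40 of 82 coding exons higher in set 1 and for 33 of 71 higher in set 2. Among all MTAP-null events it was 43.8%, and 51.4% where every library had at least 20 reads. In MTAP-WT it was 59.0% of all events and 74.3% of those with that depth. Without CD44 it was 40.2% of all MTAP-null and 44.4% of all MTAP-WT events, against 39.4% of annotated internal exons of coding genes. The share at that depth was not counted without CD44. These event shares take in exons outside coding sequence.

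By the annotation, 153 of the 259 MTAP-null exons lay within coding sequence, 33 were partly coding, 33 lay in 5′ UTRs, 1 in a 3′ UTR and 21 in non-coding transcripts, while 18 had no exact match. For the 54 MTAP-WT exons these counts were 35, 2, 6, 0, 6 and 5. The skipping junction itself was annotated for 202 of the 276 MTAP-null events and 49 of the 61 MTAP-WT events. A transcript marked for nonsense-mediated decay, the pathway that destroys messages with an early stop, contained the exon in 87 MTAP-null and 15 MTAP-WT cases. The last base of the exon, which pairs with U1 snRNA, was G in 81.9% of 149 annotated coding MTAP-null exons and in 78.8% of 33 MTAP-WT exons, against 79.6% of annotated coding exons. Median GC content was 51.9% and 52.7%, against 50%.

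Microexons of up to 30 bp were rare. There were 4 among the 259 MTAP-null exons (1.54%) and 1 among the 54 MTAP-WT exons (1.85%), against 1.67% of annotated internal exons. The 4 in MTAP-null and the 1 in MTAP-WT were higher in set 2 of their own table, beside 51.45% and 40.98% of all events. Set 2 need not hold the same treatment in both. With at least 20 reads in every library, 2 remained in MTAP-null and 0 in MTAP-WT, too few to give a direction. Just above the limit stood the 34 bp exon of ITGB4, an integrin of hemidesmosomes, whose difference was 0.15.

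The 30 bp exon of UBE2F, a conjugating enzyme of the ubiquitin-like protein NEDD8, had MTAP-null inclusion levels of 0.737, 0.864 and 0.786 in set 1 and of 1, 0.985 and 0.977 in set 2. The sets did not overlap, and the FDR in the authors' deposited table was 1.74e-05. Its libraries held 47 to 109 reads, and the exact 95% interval of the first set 1 library ran from 0.619 to 0.837. A second UBE2F exon of 66 bp, which follows the microexon, differed in the same direction by -0.334.

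The 27 bp exon of TRAPPC9, a subunit of a vesicle tethering complex, had MTAP-null levels of 0.671, 0.727 and 0.848 in set 1 and of 1, 0.94 and 1 in set 2, with 21 to 49 reads. The sets did not overlap. The 9 bp exon of PRKACB, a catalytic subunit of protein kinase A, had MTAP-WT levels of 0.732, 0.691 and 0.646 in set 1. In set 2 it had 0.927, 1 and 1. These rest on 7 to 38 reads per library, and the exact 95% interval of the second set 2 library, at 7 reads, ran from 0.568 to 1.

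The other two microexons had few reads. The 18 bp exon of DCTN1, the large subunit of the dynein partner dynactin, was listed at 0 in all 3 set 1 libraries, from 3, 1 and 2 reads, and at 0.557, 0.677 and 0.456 in set 2, from 5, 7 and 2 reads. The exact 95% interval of the first set 1 library ran from 0 to 0.67. The 20 bp exon of CACNB4, a calcium channel subunit, had levels of 0, 0.452 and 0 in set 1 and 1 in each set 2 library, from 1 to 3 reads in each. Its difference of -0.849 in the authors' deposited table was the largest of MTAP-null, at a depth that leaves intervals nearly as wide as the scale.

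In both genotypes, 12 exons were listed. They are 22.2% of the MTAP-WT exons, beside 0.465% of all events tested that were listed in MTAP-null, and 4.63% of the MTAP-null exons, beside 0.101% of those tested that were listed in MTAP-WT. Shares of exons and shares of events tested are not in the same unit. The genes shared were 9, or 22.5% of the MTAP-WT genes. In all 12 exons the set of the same number was higher in both genotypes, but whether it held the same treatment is not known. CD44, a receptor for hyaluronan whose variable exons lengthen its extracellular stem, held 8 of the 12. Some of these 8 overlap each other. The others were an exon of ZFAS1, an exon of STRADA and 2 overlapping exons of FAM211A-AS1.

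ZFAS1 is a non-coding RNA that hosts small nucleolar RNAs in its introns. Its 62 bp exon had MTAP-null inclusion levels of 0.633, 0.645 and 0.659 in set 1 and of 0.882, 0.896 and 0.875 in set 2. In MTAP-WT they were 0.696, 0.727 and 0.692 in set 1 and 0.839, 0.828 and 0.833 in set 2. The sets were apart in both genotypes, at 1881 to 9660 reads per library. The differences in the authors' deposited table were -0.239 and -0.128. A second ZFAS1 exon of 86 bp was listed only in the MTAP-null table, at -0.073.

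FAM211A-AS1, another non-coding gene, had a pair of exons that share their end and differ by an alternative start. The 123 bp form had levels of 0.191, 0.198 and 0.19 in set 1 and of 0.343, 0.34 and 0.344 in set 2 of MTAP-null. In MTAP-WT it had 0.164, 0.184 and 0.187 in set 1 and 0.317, 0.312 and 0.317 in set 2. These are the most deeply covered exons of the tables, with at least 22904 reads per library. The 176 bp form shares most of those reads and differed by -0.12 in both genotypes.

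STRADA is a pseudokinase that activates the tumour suppressor kinase LKB1. The 58 bp exon had MTAP-null levels of 0.69, 0.583 and 0.695 in set 1 and of 0.919, 0.892 and 0.848 in set 2. In MTAP-WT, levels were 0.248, 0.423 and 0.331 in set 1 and 0.565, 0.658 and 0.718 in set 2. Set 1 was below set 2 throughout, from 63 to 158 reads per library. All MTAP-WT set 1 levels were below all MTAP-null levels, and the highest MTAP-WT set 2 level was above the MTAP-null set 1 levels. The length of this coding exon is not divisible by 3.

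**Figure D4:**
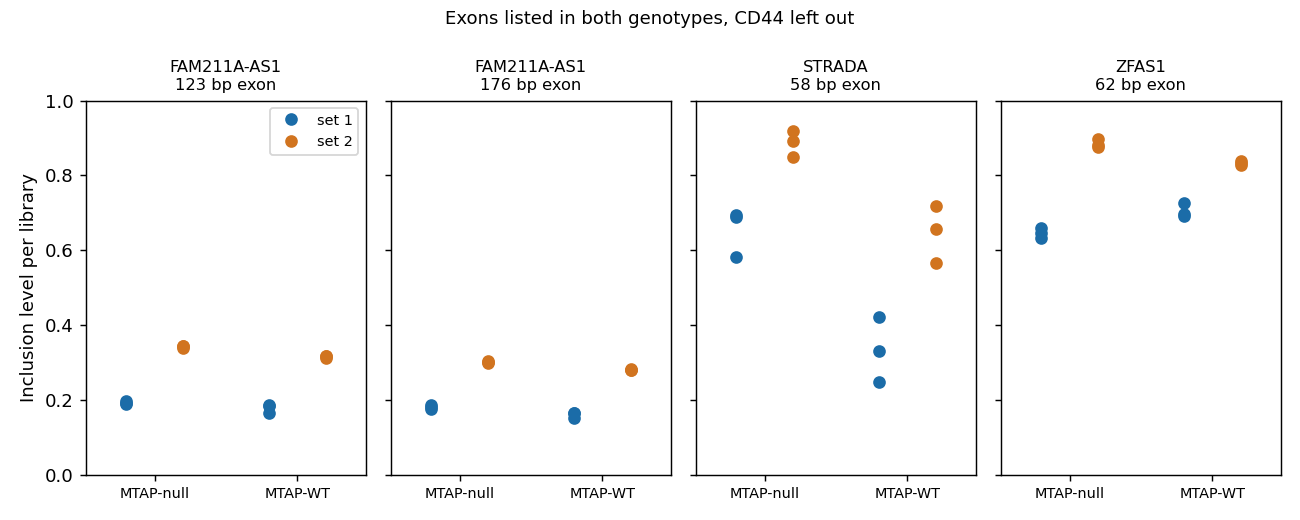
Inclusion level (0 to 1) in each library for the 4 exons outside CD44 that were listed in both genotypes, with 3 points per set. Set 2 lies above set 1 in every panel and genotype. By set number, the STRADA exon has lower levels in MTAP-WT than in MTAP-null.

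The CD44 events differed by 0.092 to 0.415 in MTAP-null and by 0.119 to 0.252 in MTAP-WT, and no set 1 library overlapped set 2 in any of the 33. These events are not separate measurements: the 17 MTAP-null events hold 6 different sets of skipping reads and the 16 MTAP-WT events 3. The 129 bp exon printed above reached 0.716, 0.769 and 0.707 in set 1 and 0.326, 0.308 and 0.313 in set 2 for one pair of MTAP-null flanking exons.

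The other 5 shared genes had different exons in each genotype. CACNB4, SNED1, TPRG1 and COL13A1 each had 1 exon per genotype, and by set number CACNB4 and COL13A1 pointed in opposite directions. In COL13A1, a transmembrane collagen, a 57 bp exon had MTAP-null levels of 0.245, 0.317 and 0.241 in set 1 and of 0.112, 0.113 and 0.112 in set 2. A 45 bp exon had MTAP-WT levels of 0.109, 0.201 and 0.117 in set 1 and of 0.37, 0.415 and 0.279 in set 2. Each set stood apart in both exons, at 83 reads or more. Whether the 2 exons differ between genotypes was not tested.

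Genes with several exons were a minority. In MTAP-null, 24 genes had 2 listed exons and 3 had 3 or more, and in MTAP-WT 3 genes had 2 and 2 had 3 or more. Many were exons that overlap through an alternative splice site. With overlapping exons counted once, the genes with several exons fell from 27 to 14 in MTAP-null and from 5 to 3 in MTAP-WT. Overlapping exons share reads, and exons that do not overlap can share skipping reads. Events of a gene are therefore not separate measurements, and the counts that follow are a description. Among genes with exons that do not overlap, all events of a gene pointed one way in 10 of 14 in MTAP-null and in 3 of 3 in MTAP-WT.

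The exceptions in MTAP-null were CCDC163P, SNHG17, UPP1 and ZNF266. ZNF266, a zinc-finger gene, had 4 exons in its 5′ UTR. Those of 62 and 161 bp were higher in set 1 by 0.425 and 0.362, and the overlapping ones of 130 and 134 bp were higher in set 2, by -0.519 and -0.573. Its libraries held 2 to 28 reads in these events. UPP1, uridine phosphorylase, had a 47 bp exon at -0.153 and a 115 bp exon at 0.215.

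C16orf13 had 3 coding exons of 68, 60 and 163 bp, all higher in set 2. The events of its 68 and 163 bp exons hold the same skipping reads, so they are not independent. The 68 bp exon had levels of 0.751, 0.714 and 0.72 in set 1 and of 0.925, 0.935 and 0.873 in set 2, from 233 to 391 reads. VIPR1, the receptor for vasoactive intestinal peptide, had 4 MTAP-WT exons, 2 of them overlapping. All 4 were higher in set 1, by 0.355 to 0.699, from 2 to 20 reads per library.

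The largest differences with at least 20 reads in every library and no overlap between sets came from 184 MTAP-null and 35 MTAP-WT events. In MTAP-null the first was the 1422 bp exon of SPOCD1, at 1 in all 3 set 1 libraries and at 0.453, 0.473 and 0.534 in set 2. SPOCD1 directs DNA methylation of transposons in the male germ line of mice. The 58 bp exon of CCDC138 followed, with 0.539, 0.765 and 0.784 in set 1 and 0.211, 0.312 and 0.212 in set 2.

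The 147 bp exon of BTC, betacellulin, a ligand of the EGF receptor, had levels of 0.462, 0.339 and 0.226 in set 1 and 0.774, 0.778 and 0.763 in set 2. PTPN4, a tyrosine phosphatase, had a 45 bp exon at 0.515, 0.504 and 0.603 in set 1 and 0.956, 0.922 and 0.928 in set 2. A 148 bp exon of UQCRH, a subunit of respiratory complex III, had 0.419, 0.402 and 0.338 in set 1 and 0.795, 0.731 and 0.745 in set 2. This UQCRH event rested on 355 to 924 reads per library, and the authors' deposited table gives its FDR as 0. Its skipping junction has no match in the annotation. A second event of the same UQCRH exon was listed at a difference of -0.128. The rest of the 10 were an exon of CD44 and exons of ZBTB8B, THEMIS2 and 2 overlapping ones of MTRF1, with differences of 0.361 to 0.415, all higher in set 1.

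In MTAP-WT the largest was a 42 bp exon of C11orf30, which encodes the BRCA2-binding protein EMSY. It had levels of 0.958, 0.862 and 1 in set 1 and 0.713, 0.509 and 0.458 in set 2, from 20 to 34 reads. A 39 bp coding exon of MDM4, an inhibitor of p53, had 1, 0.898 and 0.959 in set 1 and 0.748, 0.66 and 0.52 in set 2, from 26 to 38 reads. Both exons lay apart between sets, and both have lengths divisible by 3. The 722 bp exon of LRR1, a substrate receptor of a ubiquitin ligase, was higher in set 2, with 0.533, 0.633 and 0.691 against 0.812, 0.85 and 0.92. The others were the STRADA and COL13A1 exons above and 5 exons of CD44.

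Exons with 1000 or more reads in every library give the narrowest intervals, and the ones named here were chosen after their values were seen. MYL6, a light chain of non-muscle myosin, had a 45 bp exon with MTAP-null levels of 0.326, 0.333 and 0.345 in set 1 and of 0.68, 0.664 and 0.635 in set 2. EIF4A2, a helicase of translation initiation, had a 140 bp exon at 0.918, 0.912 and 0.918 against 0.817, 0.829 and 0.813. The 1095 bp exon of NDUFV3, a subunit of respiratory complex I, had MTAP-WT levels of 0.515, 0.474 and 0.445 in set 1 and of 0.292, 0.293 and 0.319 in set 2. In each the 3 libraries of a set lay closer together than the sets.

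Over all 19936 annotated coding genes, expressed or not, 0.933% had a listed exon in MTAP-null and 0.166% in MTAP-WT, and the counts for the lists below are descriptions beside these shares. The list with the most listed genes was adhesion, cytoskeleton and epithelial splicing targets. In it, 8 of 104 members (7.69%) had a listed MTAP-null exon. This list takes in known splicing targets, and lists were chosen with earlier results of these data known. Its share is therefore no result about function. Of its 25 MTAP-null events 20 were higher in set 1, of which 17 were of CD44. Its median difference was 0.211 in size, beside 0.236 over all MTAP-null events. EPB41, a protein of the membrane skeleton, had a 57 bp exon at 0.583, 0.634 and 0.663 in set 1 and 0.962, 0.891 and 0.944 in set 2. LAS1L, a ribosome biogenesis protein, had a 126 bp exon at 0.703, 0.718 and 0.764 against 0.402, 0.532 and 0.51. The 119 bp exon of CTNND1, p120 catenin, had 2 to 8 reads per library and overlapping sets. In MTAP-WT, CD44 was the single member.

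Of 99 splicing regulators, 5 (5.05%) had a listed MTAP-null exon, with a median difference of 0.161 in size, and 4 of these 5 exons were higher in set 2. HNRNPDL had a 105 bp exon in its 3′ UTR at 0.176, 0.211 and 0.209 in set 1 and 0.498, 0.451 and 0.423 in set 2, from 431 to 803 reads. HNRNPA2B1 had an exon without an exact annotation match at 0.176, 0.182 and 0.261 against 0.061, 0.061 and 0.015, the single one higher in set 1. LUC7L, a U1-associated factor, had a 70 bp exon at 0.045, 0.206 and 0.038 against 0.172, 0.25 and 0.38, with overlapping sets. The other two, named after their values were seen, were PCBP2 and SRSF3, with differences of -0.145 and -0.085 from at least 2849 and 2110 reads. In MTAP-WT the single member was PCBP3, with a 42 bp exon at 0.121, 0.187 and 0.315 against 0.734, 0.9 and 1, from 5 to 15 reads.

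Of 118 genes of DNA repair and damage signalling, 4 (3.39%) had 6 MTAP-null exons, 3 in each direction. None of the 118 had an MTAP-WT exon, beside 0.166% of all coding genes, a share so low that the absence is no result. NSMCE2 and C11orf30, which had a listed MTAP-WT exon, are not in this list. PRKDC, the catalytic subunit of DNA-dependent protein kinase, had a 93 bp exon at 0.911, 0.933 and 0.944 in set 1 and 0.775, 0.773 and 0.797 in set 2, from at least 554 reads. RAD1, part of the checkpoint clamp, had a 109 bp exon at 0.541, 0.471 and 0.52 against 0.717, 0.692 and 0.668. EXO1, an exonuclease, had an exon of its 5′ UTR that differed by -0.244.

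Of 37 methionine and polyamine genes, 2 (5.41%) had a listed MTAP-null exon and 1 (2.70%) an MTAP-WT exon, all higher in set 1. SHMT2, the mitochondrial serine hydroxymethyltransferase, had an 80 bp exon at 0.966, 0.969 and 0.968 in set 1 and 0.858, 0.836 and 0.854 in set 2, from at least 2737 reads. MTRR, which reactivates methionine synthase, had a 154 bp exon at 0.608, 0.585 and 0.629 against 0.367, 0.318 and 0.453. MAT1A, the liver form of methionine adenosyltransferase, had a 123 bp MTAP-WT exon at 1, 1 and 0.935 against 0.722, 0.581 and 0.733, from 9 to 34 reads. In all 3 the sets were apart.

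Other lists held 1 or 2 members each. Among 99 core spliceosome genes SNRPA1, of the U2 snRNP, had an exon at 0.944, 0.918 and 0.904 against 0.813, 0.811 and 0.763. HIPK3 was the single one of 23 splicing kinases and phosphatases, at a difference of 0.168. MBD1, which binds methylated CpG, and DAXX, a histone chaperone, were those of 130 chromatin regulators, at 0.322 and -0.202. MAGOHB and DIS3, the exosome nuclease, were those of 62 genes of decay and mRNA export, at -0.091 and 0.186. BIRC5, survivin, was the single match among the 103 members of the mitosis list, at -0.151. ACAP3 and ARHGEF1 were those of 107 small GTPase regulators, at -0.187 and -0.163. MDM4 was the single one of 52 p53 and apoptosis genes, in MTAP-WT. No listed exon was found among the 15 members of the arginine methylation list or the 45 of the RNA modification list in either genotype. The lists do not hold every gene of a function. TRMT2B, WBSCR22, SGOL1 and ANAPC16 had listed MTAP-null exons but matched none of the lists under these symbols. How many members were among the events tested is unknown, since only the events that passed were analysed here.

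Some skipped exon genes also had other listed events. Of the 224 MTAP-null genes, 2 had a listed retained intron, 3 an alternative 3′ and 6 an alternative 5′ splice site. None of the 40 MTAP-WT genes had any of these 3. An exon of a listed mutually exclusive pair was found for 15 MTAP-null and 2 MTAP-WT exons. In the authors' separate intron table, which has treatments in its headers, 31 of the 224 MTAP-null genes (13.8%) had a listed intron, which is 2.41% of the 1287 genes of that table. In MTAP-WT these were 2 of the 40 genes (5.0%).

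With AGI24512, intron features beside a listed exon had more reads. Between a listed exon and a neighbouring exon lay 22 MTAP-null features of 15 genes. Of these, 9 touched the exon, and the farthest, in ZNF438, lay 12975 bp away. In MBD1 and CD44 some features adjoin each other, so the 22 are not all separate introns. One of the 22 is the CD44 exon printed above, which the intron table also lists. By edgeR's quasi-likelihood test with Benjamini-Hochberg adjustment over all 1549 features, 21 of the 22 rose and 0 fell. Over all features 77.6% rose and 4.65% fell, and since the authors chose them on these libraries the count is a description. The treatments did not overlap in 20 of the 22, beside 81.0% of all features. The median log2 change was 1.13 beside an exon and 0.95 over all features, and 12 of the 22 were above that median. With TMM scaling on the listed features, which moves the median of all to 0.11, the split over all became 251 risen and 253 fallen, and 6 of the 22 rose and 1 fell. A higher feature count can come from a kept intron or from more RNA of the whole gene, and these were not separated here. In bulk RNA, a change in every cell and a change in the mix of cells cannot be told apart either.

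MBD1 had 6 of these features, all downstream of its 72 bp exon. The one with the smallest p had normalised counts of 191, 188 and 243 with AGI24512 and of 49.8, 57.3 and 54.7 with DMSO. Its fold was 3.85 (log2 1.94, SE 0.18, adjusted p 1.92e-06 by edgeR). The treated libraries were all above the controls, and with TMM scaling the log2 change was 1.10 (adjusted p 2.67e-07 by edgeR). The exon itself had inclusion levels of 0.696, 0.724 and 0.654 in set 1 and 0.328, 0.428 and 0.353 in set 2.

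SNHG5, a non-coding host of small nucleolar RNAs, had a 298 bp feature 4 bp from its 81 bp exon. It had 127, 94.1 and 125 normalised counts with AGI24512 and 52.4, 49.5 and 40.7 with DMSO, a log2 change of 1.27 (adjusted p 0.000181 by edgeR), which with TMM scaling was 0.44 and did not pass (adjusted p 0.0783). The SNHG5 exon was higher in set 2 in all 3 of its events. USPL1, a SUMO protease, had an intron of 1332 bp at 17.6, 52.2 and 53.1 against 9.61, 7.77 and 2.33, the largest log2 change of the 22 at 2.54. One treated library lay well below the other two.

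The features of GPBP1 and ZNF438 were chosen after their values were seen. GPBP1, a promoter-binding transcription factor, had an intron of 9127 bp just downstream of its 60 bp exon, with 195, 361 and 349 normalised counts with AGI24512 and 169, 169 and 164 with DMSO. The log2 change was 0.85 (SE 0.20, adjusted p 0.00165 by edgeR), and -0.02 with TMM scaling. Its exon had inclusion levels of 0.581, 0.652 and 0.639 in set 1 and 0.281, 0.335 and 0.228 in set 2. STRADA had an intron directly downstream of its shared exon at 39.9, 53.3 and 55.9 with AGI24512 against 33.2, 31.1 and 24.4 with DMSO, a log2 change of 0.73 (adjusted p 0.0134 by edgeR). That is below the median of all features, and with TMM scaling the change was -0.12. The STRADA call was lost without AGI24512 replicate 3 (adjusted p 0.0502 by edgeR) and without DMSO replicate 3 (0.0570). ZNF438 did not pass, at a log2 change of -0.30 (adjusted p 0.157 by edgeR), but fell with TMM scaling, by 1.13 (adjusted p 3.44e-07 by edgeR). Its deposited usage, which is relative to the rest of its gene, was higher with AGI24512, at a log2 of 0.27. The deposited usage was higher with AGI24512 in all 22 MTAP-null features beside an exon. The authors listed these features on the same libraries, so that count is a description. In MTAP-WT the features beside an exon were the same CD44 exon and an intron of SNED1, an extracellular matrix protein, and both rose by edgeR (adjusted p 1.78e-08 and 2.37e-05), by 0.77 and 0.80 on the log2 scale, beside 70.5% of the 258 features. With TMM scaling neither passed. The SNED1 libraries overlapped between treatments, while those of 83.7% of all MTAP-WT features did not.

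**Figure D5:**
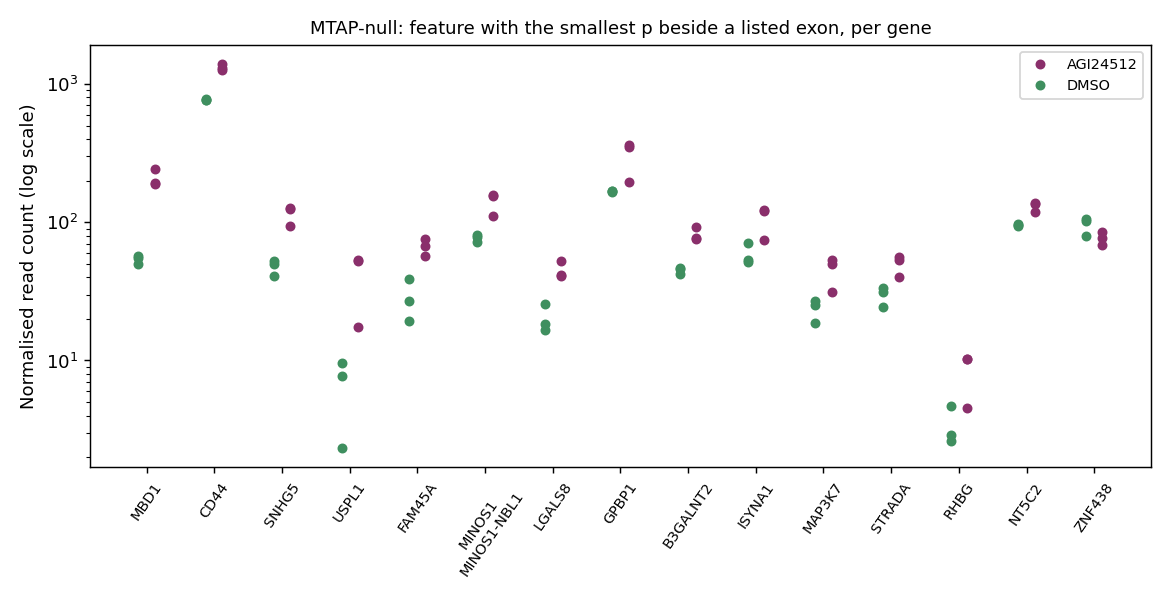
Normalised read count (log scale) in each MTAP-null library for the feature with the smallest p beside a listed exon in each of 15 genes, AGI24512 and DMSO side by side. Scaled with the authors' size factors, treated libraries lie above the controls in 13 genes, overlap them in RHBG, and lie below or among them in ZNF438.

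The CD44 exon stands in both kinds of table. Its raw counts in the intron table were 1508, 1118 and 1396 with AGI24512 and 871, 783 and 664 with DMSO in MTAP-null. In the skipped exon table its inclusion reads were 1153, 860 and 1032 in set 1 and 708, 586 and 515 in set 2. The tables count reads in different ways, and the sets were not assigned from this.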

How the data were processed

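Poly-A RNA of 12 HCT116 libraries was sequenced as paired ends, per the labels' protocols. The members and gene lists were chosen with earlier results of these data known. Groups come from the titles. The authors' deposited tables were made with rMATS (skipped exons and other events) and DEXSeq (introns), per the file headers; the sources used here name no aligner, tool version or genome build. The deposited fraction is the inclusion level per library. The deposited score is the level of set 1 minus that of set 2. The authors' p-value and FDR were copied. Deposited counts are inclusion and skipping reads per library in the skipped exon tables and raw reads per feature in the intron tables. The deposited signal is a base mean, in which each library's count was scaled by its size factor, and factors between 0.859 and 1.14 were recovered from it. The deposited log2 fold of usage was used for its sign.

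Some read count cells had lost their commas. Of 249 such cells in MTAP-null 248 could be split in 1 way that gives the deposited levels to within 0.00051, and in MTAP-WT 57 of 57. The inclusion length was the exon length plus 94 in all events, so reads within the exon count as well as junction reads. Exons matched GENCODE 29 on GRCh38 by exact start and end in 241 of 259 MTAP-null and 49 of 54 MTAP-WT exons. The number of events tested was FDR times rank over p.

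Intron counts were tested with edgeR 4.0.16 in R 4.3.3, AGI24512 against DMSO, with Benjamini-Hochberg adjustment over all listed features of a genotype, and checked on simulated data. DESeq2 1.42.0 was the other tool. Summed listed counts ran from 113064 to 214530 per MTAP-null and from 50919 to 65080 per MTAP-WT library; they are not the depth. Intervals are exact Clopper-Pearson at 95%, put through the length correction. Exons named are those listed in both genotypes, of up to 30 bp, the 10 largest differences per genotype with at least 20 reads per library and no overlap, genes with 3 or more exons, up to 4 members per list, the 10 smallest p beside an intron, and the longest and shortest. One gene that this rule names is not reported here. Alternatives were stricter filters, each exon once, other length limits, other scalings, the replicate block and leaving out libraries.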

Additional observations from a re-analysis of the deposited data

How the results depend on the processing

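The share of events higher in set 1 was 47.1% to 52.4% in MTAP-null (48.6% in all events) and 53.7% to 62.5% in MTAP-WT (59.0%) under each exon once, at least 20 reads, FDR under 0.01, a difference of at least 0.1 and non-overlapping libraries. Each library left out changed no direction, but it could not do so in the 251 and 58 events without overlap, so this says nothing of stability. Leaving out CD44, chosen after seeing the data, moved it to 44.4% in MTAP-WT. A length limit of 51 bp gave 9.42% in MTAP-null and 13.1% in MTAP-WT, and at least 20 reads left 0% of MTAP-WT exons at up to 30 bp. The share divisible by 3 moved to 51.4% in MTAP-null and 74.3% in MTAP-WT with at least 20 reads, and to 44.4% in MTAP-WT without CD44. Counting only exons that do not overlap gave 14 and 3 genes with several exons, since fewer exons then count. The 12 shared exons became 11 with equal flanks, 13 with any overlap and 11 at FDR under 0.01.

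Scaling decided the intron calls. TMM on the listed features gave 6 risen MTAP-null features and 0 in MTAP-WT, and DESeq2 gave 4 and 0; both centre on the listed features, whose median change fell from 0.95 to 0.11 and 0.07 in MTAP-null and from 0.73 to 0.16 and 0.14 in MTAP-WT. Changes turned negative under TMM for CD44 (-0.0402), STRADA (-0.122), NT5C2 (-0.391), ISYNA1 (-0.00622) and GPBP1 (-0.0214). Under DESeq2 they did so for CD44 (-0.0693), B3GALNT2 (-0.0134), MINOS1 (-0.0105), STRADA (-0.154), NT5C2 (-0.422), ISYNA1 (-0.0434) and GPBP1 (-0.0596). Any listed intron of the same gene gave 32 risen of 42. Leaving out a library gave 18 to 21 risen features in MTAP-null and 2 in MTAP-WT; the calls lost were those of RHBG, NT5C2 and STRADA. Same-numbered replicates did not pair, with correlations of -0.12 to 0.07, and the fit with the replicate block gave 21 and 2 risen, as without it. Depth limits exons with fewer than 20 reads.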
